A study of Mus musculus with 12 samples.

Results

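SRF and YAP target genes are 10 genes that encode smooth-muscle-type actin cytoskeleton proteins (Acta2, Tagln, Cnn1, Cnn2, Myl9, Tpm4), secreted matricellular proteins (Ctgf, Cyr61, Thbs1) and a muscle ankyrin repeat protein (Ankrd1). They were taken by symbol from the 3 tables deposited for RNA-seq of mouse C2C12 cells, which list 10289 different genes in all. Of the 10 genes, 9 had a row in at least one table, 7 of them under the symbol given here. The other two, Ctgf and Cyr61, were listed under the newer symbols Ccn2 and Ccn1. Tagln, the gene of the actin-binding protein transgelin, had a row in none, so it has no value here.

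C2C12 is a mouse myoblast line that divides in growth medium (GM) with fetal bovine serum and fuses into myotubes after the change to differentiation medium with little horse serum. All the lines were stable C2C12 cells made with a lentiviral vector, in which a CMV promoter drives the inserted cDNA, and selected with puromycin. The groups were cells expressing GFP, the control, in GM (day 0) and after 4 days of differentiation (D4), and cells overexpressing mouse METTL3 or mouse METTL14, the core subunits of the complex that writes N6-methyladenosine (m6A), in GM, with 2 libraries in each group. For the METTL14 libraries the time point label gives day 4, whereas their titles give day 0 and a figure legend of the study places METTL14-overexpressing cells in GM. The tables hold no value for a single library, so neither the spread between replicates nor the level in each group is given here, and the depth of each library is unknown from them.

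Serum response factor (SRF) binds the CArG box, a stretch of CC, 6 A or T bases and GG, and is switched on by myocardin-related cofactors that leave the cytoplasm when actin polymerizes, so that its targets follow serum, tension and the state of the cytoskeleton. YAP and its relative TAZ reach DNA through TEAD proteins, which bind the sequence CATTCC, known in muscle genes as the MCAT element, and are held out of the nucleus by the Hippo kinases in dense or soft surroundings. In muscle cells SRF serves the actin genes of the contractile apparatus, while YAP is known for its activity in dividing myoblasts.

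The promoter windows of the members were searched for both sequences, because these are the elements that SRF and TEAD proteins bind. RefSeq windows (GRCm38.p6) of 250 bases before to 50 bases after the transcription start site were searched for 7 members, and those of Ctgf, Tagln and Thbs1 were not used here. An exact CArG box was found in the windows of Cnn2 and Myl9, 2 of 7 members, against 1.63% of all 32851 promoter windows. Each is given in a stretch of 30 bases, 5′ to 3′ on the strand of the gene, with the CArG box in capitals.

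Cnn2, chr10:79988534-79988563, plus strand, box from base -56: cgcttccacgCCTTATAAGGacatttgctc

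Myl9, chr2:156775293-156775322, plus strand, box from base -161: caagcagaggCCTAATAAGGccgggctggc

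With 1 base other than A or T allowed among the inner 6, Acta2 had 2 matches and Myl9 a further one, so that 3 of the 7 members held a box of this looser kind, against 9.98% of all windows. The capitals in the next stretches mark these looser boxes.

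Acta2, chr19:34255438-34255467, minus strand, box from base -84: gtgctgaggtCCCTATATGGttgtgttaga

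Acta2, chr19:34255388-34255417, minus strand, box from base -34: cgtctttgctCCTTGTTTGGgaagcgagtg

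Myl9, chr2:156775355-156775384, plus strand, box from base -99: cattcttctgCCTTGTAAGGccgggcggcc

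CATTCC, on either strand, lay in the windows of Acta2, Ankrd1 and Cyr61, 3 of 7 members, against 14.7% of all windows. On the strand of the gene it reads GGAATG in Acta2 and Ankrd1 and CATTCC in Cyr61, and capitals mark it in the stretches that follow. No window of a member held both an exact CArG box and CATTCC, against 0.228% of all windows, so nothing is read from this. The window of Acta2 held CATTCC beside its looser boxes.

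Acta2, chr19:34255502-34255531, minus strand, match from base -146: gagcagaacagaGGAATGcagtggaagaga

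Ankrd1, chr19:36120037-36120066, minus strand, match from base -210: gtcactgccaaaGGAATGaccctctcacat

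Ankrd1, chr19:36119950-36119979, minus strand, match from base -123: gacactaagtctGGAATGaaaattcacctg

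Cyr61, chr3:145650071-145650100, minus strand, match from base -103: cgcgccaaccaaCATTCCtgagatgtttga

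The windows of Cnn1 and Tpm4 held neither sequence. This says only that these letters are not in the 250 bases before and 50 bases after the start used. The matches of Acta2 and Ankrd1 lie inside a first exon that GENCODE M21 annotates for another transcript of the same gene, while those of Cnn2, Cyr61 and Myl9 lie outside annotated exons. A match is a description of the reference sequence, and binding was not measured in these libraries. The plot of match positions shows that every match, exact or looser, lies before the start site.

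**Figure D1:**
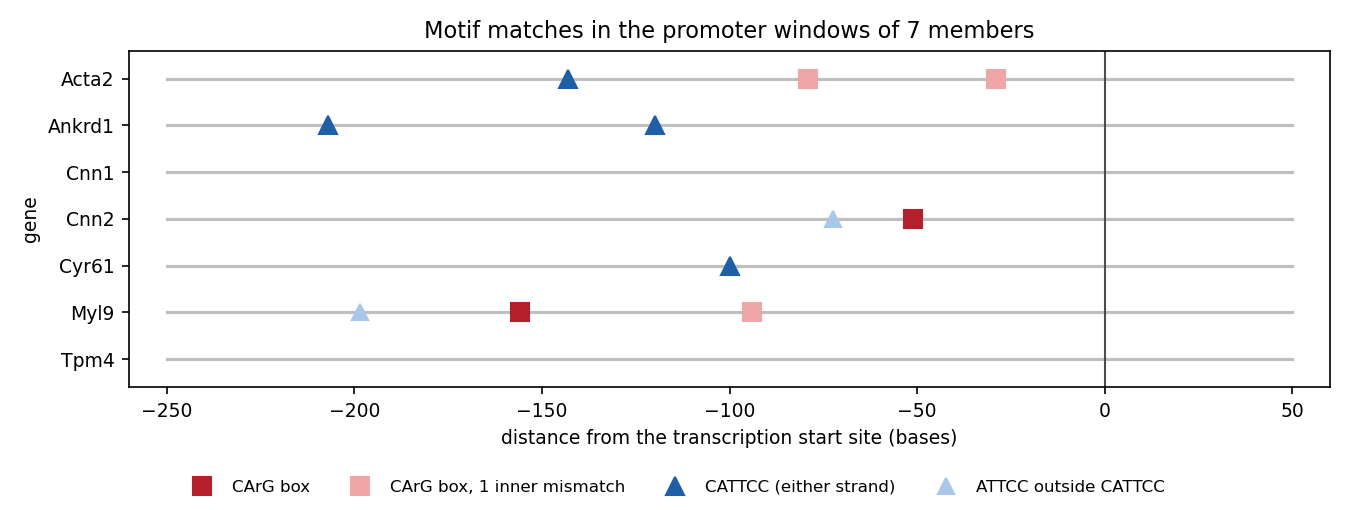
Matches of the CArG box (red, pale red with 1 inner mismatch) and of CATTCC (blue, pale blue for its 5-base core ATTCC alone) in the promoter windows of 7 members; the horizontal axis is the distance from the transcription start site in bases. The exact CArG boxes are those of Cnn2 and Myl9, and CATTCC is found in Acta2, Ankrd1 and Cyr61.

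The level of a gene is given here as the authors' mean normalized count, an average over the libraries of their fit after scaling for depth. It is a single value per gene that mixes all 4 groups of 2 libraries, the METTL3 and METTL14 lines included. Only the GFP D4 group was differentiated, so growing cells weigh more in this mean than D4 cultures. A gene expressed in one group alone has a mean below its level there. The median over all 10289 listed genes was 458, and the mean counts of the 9 listed members ran from 20.7 to 53876, with a median of 6701. These counts are not divided by length, so they are given as values and no order between genes is read from them.

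Among the actin cytoskeleton members, Acta2 (ENSMUSG00000035783, chromosome 19 of GRCm38, 34241090 to 34255590, minus strand), the gene of smooth muscle alpha-actin, had a mean normalized count of 29513. Tpm4 (ENSMUSG00000031799, chromosome 8, 72134975 to 72153142), which encodes a tropomyosin that winds along actin filaments of the cytoskeleton, had a mean count of 10483. Cnn2 (ENSMUSG00000004665, chromosome 10, 79988584 to 79996062), the gene of the calponin of non-muscle and smooth muscle cells, had a mean count of 5600. Myl9 (ENSMUSG00000067818, chromosome 2, 156775420 to 156781658), the regulatory light chain of smooth muscle and non-muscle myosin, had a mean count of 443. Cnn1 (ENSMUSG00000001349, chromosome 9, 22099216 to 22109630), the calponin that marks differentiated smooth muscle, was at 20.7.

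The 3 secreted members had mean counts between 3063 and 53876. Thbs1 (ENSMUSG00000040152, chromosome 2, 118111876 to 118127133), the gene of thrombospondin-1, a matrix glycoprotein that binds cell surface receptors and activates latent TGF-beta, had a mean count of 53876. Cyr61 (ENSMUSG00000028195, chromosome 3, 145646976 to 145649981, minus strand) and Ctgf (ENSMUSG00000019997, chromosome 10, 24595442 to 24598683) encode integrin-binding proteins of the CCN family and are the usual readouts of YAP activity. Their mean counts were 6701 and 3063. Ankrd1 (ENSMUSG00000024803, chromosome 19, 36111961 to 36120099, minus strand), whose product binds titin in the sarcomere and also enters the nucleus, had a mean count of 13594.

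For an order between genes, the mean counts were divided by the summed length of the annotated exons. On this scale of mean count per kb, Acta2 led with 13440, followed by Thbs1 with 8871, Tpm4 with 4759 and Ankrd1 with 4710. Cyr61 was at 3319, Cnn2 at 2276, Ctgf at 1071, Myl9 at 381 and Cnn1 at 7.58 per kb. The median of all listed genes was 99.6 per kb, so every listed member but Cnn1 was above it. Myl9 was above 83.5% and Cnn1 above 11.8% of the listed genes per kb, and the other 7 members were above at least 95.2%. These positions are among genes that passed the authors' limit and not among all expressed genes. The exons of Thbs1 cover 6073 bases and those of Acta2 cover 2196 bases. No spread between libraries is known, so close neighbours in this order cannot be separated. Tpm4 and Ankrd1 differed by a ratio of 1.01, and their order turned when the longest transcript or the median coding transcript was taken as the length. The other 7 listed members kept their places under both lengths. Cyr61 and Cnn2, however, differed by a ratio of only 1.003 with the median coding transcript, so their order is not separated either. The widest step was between Myl9 and Cnn1, a ratio of 50.3 per kb, which was 45.1 with the longest transcript and 19.8 with the median coding transcript.

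**Figure D2:**
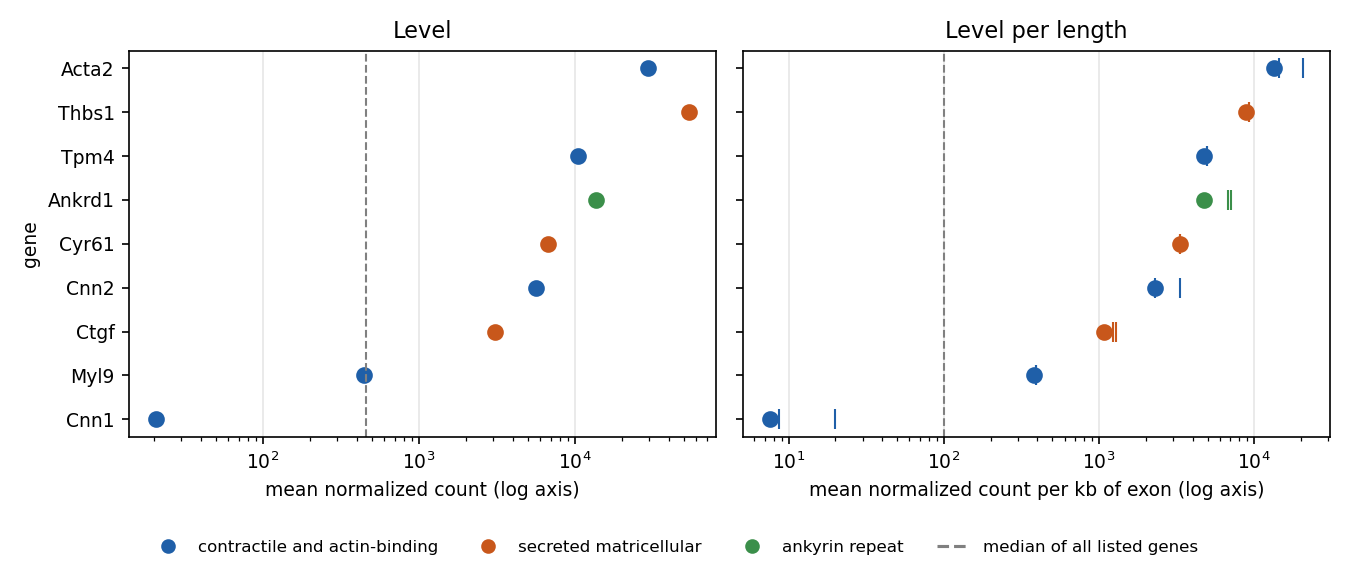
Mean normalized count (left) and mean normalized count per kb of exon (right) of the 9 listed members on log axes, coloured by role; dashed lines are the medians of all listed genes, and small ticks on the right are the values with the longest or the median coding transcript as the length. Acta2 and Thbs1 lie at the top and Cnn1 lies far below all other members.

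Counts at some members may depend on how reads of overlapping or similar genes were assigned. Exons of genes on the opposite strand cover 67.9% of the exonic bases of Tagln (Pcsk7 and Gm48529), 23.2% of those of Ctgf (Gm15270), 6.08% of those of Tpm4 (Gm26586) and 3.42% of those of Thbs1 (Gm29233) in GENCODE M21. Whether strand was used in counting is not given in the sources used here, and the part of this overlap in the values was not tested. The other 6 members had no exonic overlap with another gene. The muscle actin genes Acta1, Acta2, Actc1 and Actg2 encode closely similar proteins. How reads were split between these genes was not examined, so their relative levels are uncertain.

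The members were also set beside their paralogs by the same mean, which mixes growing myoblasts, the overexpressing lines included, with D4 cultures. The shares below are therefore not those of either state. Among the 6 actin genes listed, Acta2 was at 19.9% of their summed level per kb. Acta1, the skeletal muscle actin, was at 51.5% and the cytoskeletal actin Actb at 22.0%, whereas Actc1, the cardiac muscle actin, was at 3.01% and Actg2, the other smooth muscle actin, at 0.353%. Acta2 was thus much higher than the second smooth muscle actin, by a ratio of 56.2 per kb, and close to Actb. Of the calponins, Cnn3 and Cnn2 were at 2330 and 2276 per kb, and Cnn2 exceeded Cnn1 by a ratio of 300.3 (261 with the longest transcript and 167 with the median coding transcript). The calponin that marks smooth muscle was therefore the rare one. Among the tropomyosins Tpm4 was at 28.5% of the summed level, between Tpm2 at 45.7% and Tpm1 at 21.7%, with Tpm3 at 4.20%. Of the light chain genes set beside Myl9, Myl12a was listed at 807 per kb, 2.12 times Myl9, and Myl12b and Myl6 were not listed. Regulatory light chain genes other than Myl9, Myl12a and Myl12b were not looked up.

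In the other families a member had the highest of these pooled levels per kb among the genes listed. Thbs1 made up 89.7% of the summed level per kb of the 3 thrombospondin genes listed, and Thbs2 9.72%. Ankrd1 made up 92.3% of its family, in which Ankrd2, a stretch-responsive relative, was at 7.39% and Ankrd23 at 0.346%. Cyr61 made up 59.9% of the 5 CCN genes listed, Ctgf 19.3% and Wisp1 (listed as Ccn4) 18.0%. Cyr61 exceeded Ctgf by a ratio of 3.10 per kb, which was 2.70 and 2.60 with the other lengths. Genes of a family without a row have no value and could change these shares.

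**Figure D3:**
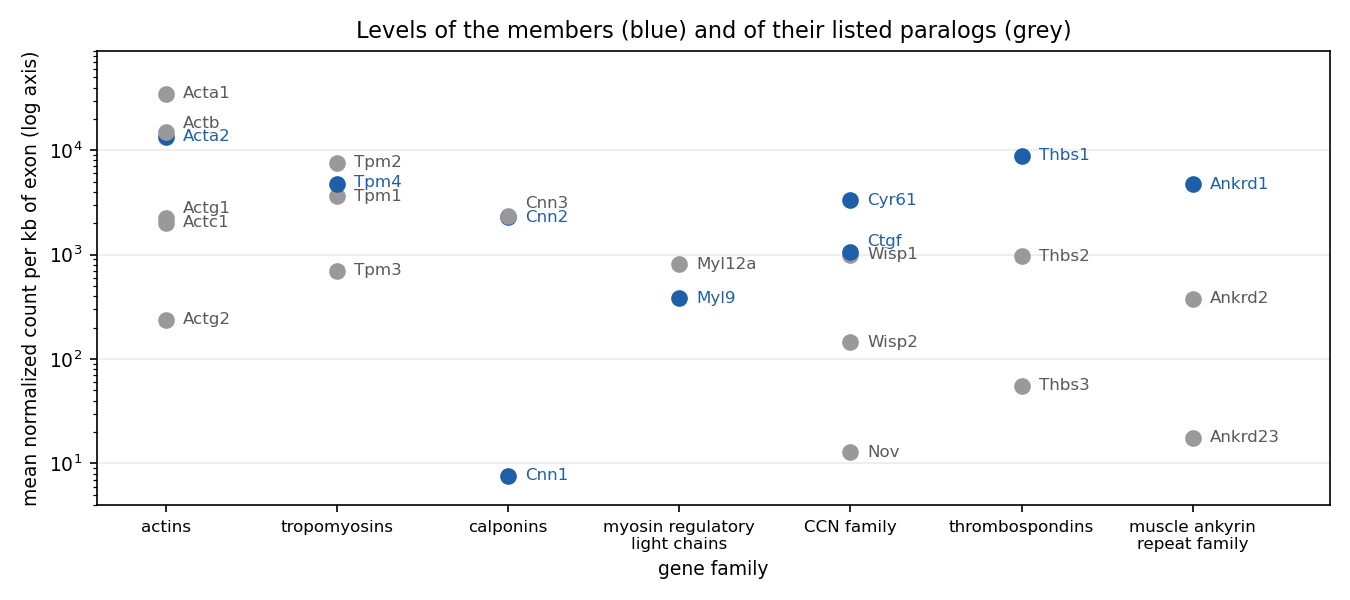
Mean normalized count per kb of exon (log axis) of the members (blue) and their listed paralogs (grey) in 7 gene families. Thbs1 and Ankrd1 lie far above their relatives, Acta2 lies beside Actb and below Acta1, and Cnn1 is the lowest of all genes shown.

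A row in a table means that the authors' comparison passed their limit on the false discovery rate (FDR ≤ 0.05) in either direction. The columns that give its direction and size are the study's own comparison and were not used, so a row is reported here only as a row. For D4 against GM, all 9 members with any row were listed. The share over the 10289 listed genes was 95.5%, because this table holds most of them, and of all annotated protein-coding genes 40.0% were listed. For METTL3 against GFP in GM, 4 members were listed, Ankrd1, Ctgf, Cyr61 and Thbs1, against a share of 17.0% over all listed genes. For METTL14 against GFP, 2 members were listed, Ankrd1 and Cyr61, against a share of 10.7%. All the comparisons, D4 against GM included, used the same GFP libraries in GM, so their rows are not independent. The members were chosen with earlier results of these data known, so nothing is read from these counts.

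By role, none of the 6 actin cytoskeleton members (Acta2, Tagln, Cnn1, Cnn2, Myl9, Tpm4) had a row for METTL3 or for METTL14, and the 5 of them that were listed had a row for D4 alone. With shares of 17.0% and 10.7% over all listed genes, 0 of 5 is near the background, and nothing is read from it. Some other genes of the actin cytoskeleton, the Tagln paralog Tagln2 and the SRF targets Zyx, Csrp1 and Pdlim7, had rows for both METTL3 and METTL14. So did 809 of the 10289 listed genes. Others, among them Vcl, Flna, Smtn and Cnn3, had rows for D4 alone. The 3 secreted members and Ankrd1 all had a row for METTL3, and Cyr61 and Ankrd1 had rows in all 3 tables, as 6.26% of the listed genes did. The absence of a row is not evidence that a gene was unaffected, and the difference between the roles was not tested.

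The genes of the factors themselves that had a row were at most at 671 per kb, below 7 of the 9 listed members. Mkl1, Elk1, Elk4, Myocd and Tead1 had no row, so their levels are not known here. Srf had a mean normalized count of 1284, or 444 per kb, and was listed for D4 alone. Of the 7 genes for SRF and its cofactors, 3 were listed, Srf, Mkl2 (listed as Mrtfb) at 839 and Elk3, a partner that binds SRF, at 1789, none of them for METTL3 or METTL14. Myocd, the myocardin gene of cardiac and smooth muscle, had no row. Of the 6 genes for YAP, TAZ and TEAD, 5 were listed, all of them for D4, 2 for METTL3 and 1 for METTL14. Wwtr1, the gene of TAZ, was at 3209 and Yap1 at 1447, which per kb is 671 and 156. The listed TEAD genes were at 169.8 for Tead2, 134 for Tead4 and 107 for Tead3 per kb, near the value of Yap1. Tead2 also had a row for METTL3 and METTL14 and Tead3 for METTL3, whereas Yap1 and Wwtr1 had a row for D4 alone. Over all listed genes the shares with a row were 95.5% for D4, 17.0% for METTL3 and 10.7% for METTL14. With so few genes, nothing is read from the rows of the factors.

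Of 12 genes for Hippo kinases and YAP inhibitors, 10 were listed, with mean counts between 739 and 2781. Of these, 9 had a row for D4, 2 for METTL3 and 1 for METTL14, against shares over all listed genes of 95.5%, 17.0% and 10.7%. These counts were near the background, and nothing is read from them. The kinase genes Stk3, Stk4 and Lats1 had rows for D4 alone, and Lats2 had no row. Amot, which encodes angiomotin, an actin-binding protein that retains YAP in the cytoplasm, had rows in all 3 tables at a mean count of 1524. Its relative Amotl2, itself induced by YAP, was listed for METTL3 alone at 1906.

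Other known targets of the same factors were counted in the same way. Of 18 further SRF target genes 13 were listed, 12 for D4, 7 for METTL3 and 4 for METTL14, against shares over all listed genes of 95.5%, 17.0% and 10.7%. Per kb they ranged from 21.4 for the immediate early gene Fos to 4586 for Flna, the actin cross-linker filamin A. Zyx, the focal adhesion protein zyxin, was at 1932 per kb and had rows in all 3 tables. Of 20 further YAP target genes 18 were listed, all for D4, 6 for METTL3 and 6 for METTL14, against the same shares of 95.5%, 17.0% and 10.7%. The D4 counts of both lists were near the background. Both lists were chosen with earlier results of these data known, so nothing is read from their METTL3 and METTL14 counts. The highest of the YAP targets per kb was Axl, a receptor tyrosine kinase, at 2075. Per kb the medians of the listed genes were 653 for the further SRF targets, 124 for the further YAP targets and 3319 for the members, and the difference was not tested.

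The markers of the cell type were read by their rows, which exist only for genes that passed the authors' limit, so an expressed marker that did not pass has no row either. All 8 muscle lineage markers were listed, among them Des at 24157, Myod1 at 1845 and the embryonic myosin gene Myh3 at 40372. Of 6 smooth muscle markers, 4 were listed, Des, which skeletal muscle shares, at 24157, Smtn at 1458, Actg2 at 372 and Lmod1 at 90.0, whereas Myh11 and Myocd had no row. Of 4 endothelial markers only Tek was listed, at 56.7, and none of 4 blood cell markers was listed, which does not show that they were absent. Genes such as Acta2 and Tpm4 are also expressed by skeletal myoblasts, so their levels here do not mark smooth muscle cells.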

How the data were processed

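RNA-seq of 8 C2C12 libraries was used, and 4 MeRIP-seq libraries were not analysed here. The authors aligned reads to GRCm38 with hisat2, counted them with featureCounts on Ensembl annotation and compared groups with DESeq2; versions of these programs are not given in the sources used here. The authors divided counts by size factors and averaged them over libraries, and this signal, the mean normalized count, is the only column used from the 3 deposited tables. Tables that shared a gene gave it a mean that differed by at most 4.77e-10 in relative terms. The tables also hold the authors' own comparisons (log2 fold change, its standard error, Wald statistic and p-values), which were not used, nor was an unheaded value beside a gene that is no member. No value per library was present, so no test was made and no normalization or filter was repeated.

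Exon lengths and positions came from GENCODE M21 (GRCm38), which held 10285 of the 10289 listed identifiers. This is another release than the authors used. The levels per kb use the union of exons. Older symbols were matched through the synonyms of RefSeq. The motif search was tested on simulated data with planted motifs. The members and gene lists were chosen with earlier results of these data known. Every member is named, and other genes come from the fixed lists. The comparison of member proteins was not made, for want of a protein table. Python 3.11.15, pandas 2.3.3, NumPy 2.4.6 and matplotlib 3.10.9 were used.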

Additional observations from a re-analysis of the deposited data

How the results depend on the processing

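No paired analysis was possible because the tables carry no value per library. For the same reason no replicate could be left out. The study's supplement gives an overview of its RNA-seq reads, which was not used here, so the limits that depth sets were not examined. The median level per kb of the listed members did not move with the longest or the median coding transcript as the length, since the median gene, Cyr61, has a single annotated transcript. By mean count undivided by length, the median member was above 97.7% of listed genes, which was 97.4% among coding genes with a mean count of at least 10. The share of genes listed, among coding genes with a mean count of at least 100, was 95.8% for D4, 19.5% for METTL3 and 12.1% for METTL14. Among annotated protein-coding genes, a base chosen after seeing the data that also holds genes without any row, it was 40.0%, 7.78% and 4.90%. Allowing 1 inner mismatch in the CArG box raised the share of all windows from 1.63% to 9.98% and the members from 2 to 3. The shorter core ATTCC raised the share from 14.7% to 38.7% and the members from 3 to 5, adding Cnn2 and Myl9.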

Other observations

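The same search in other target genes gave a CArG box in 4 of 18 promoter windows of further SRF targets and in 0 of 15 windows of further YAP targets, against 1.63% of all windows. CATTCC was found in 4 of 18 windows of the SRF targets and in 5 of 15 windows of the YAP targets, against 14.7% of all windows. Some genes have several start sites, so these windows are not independent. The windows of the members had a GC content between 54.7% and 76.0%, with a median of 59.3%, where the median of all windows was 52.7%.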
